A study of Homo sapiens with 6 samples.

Results

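The Hippo pathway was described here by 10 genes that were listed by symbol, with the tumour suppressor NF2 at their head: NF2, LATS1, LATS2, SAV1, MOB1A, YAP1, WWTR1, TEAD4, AMOTL1 and WWC1. A gene was represented by its brightest annotated probe set, by its mean across all 6 arrays, and 8 of the 10 were measured in this way among 14883 named genes. LATS1 and LATS2 were not analysed here. The genes were chosen by pathway membership and by their measured difference between the groups, so the values of the 8 are given as a description and carry no test.

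The cells were SK-N-BE(2), an established MYCN-amplified line from a human neuroblastoma. All of them had been infected with a pLKO lentivirus, carrying a non-silencing control hairpin in the control group (NSC, n = 3) and, in the other, a hairpin against BRG1, the motor subunit of SWI/SNF chromatin remodellers (shBRG1, n = 3). Cells were harvested at 48 h of infection, and each sample gave 200 ng of total RNA to an Affymetrix array of its own. The sample titles spell the second group shRG1 where the lentivirus label has shBRG1. The BRG1 transcript was not analysed here, so depletion of the target was not checked. The labels name a single hairpin vector against BRG1 and do not say whether the 3 infections of a group were handled as separate cultures, so the p-values reflect the spread among these samples alone, and part of it may be technical. The array medians over all 52299 probe sets ran from 3.77 to 3.84 on the log2 scale, and the arrays correlated at 0.991 to 0.993 within a group and at 0.986 to 0.988 between groups. Of 16 markers of sympathetic neuroblasts 14 were measured, all of them above the median gene (mean of 5.09), with dopamine beta-hydroxylase (DBH) at 10.96 and STMN2 at 11.28 in NSC. By limma at an adjusted p of 0.05, 7 of the 14 were lower and 1 was higher in shBRG1, where 7.19% of all genes were lower and 9.78% higher. The 7 were RET, CHGA, PHOX2A, GATA2, HAND2, ISL1 and CHGB, and TBX2 was the 1 that rose. DBH and STMN2 did not pass. The shares over all genes include dim genes, unlike these markers. A fit that left out genes below the median gene called 1224 lower and 1977 higher, against 1070 and 1455 over all genes. Of 10 Schwann cell markers 6 were measured, 4 of them below the median gene. All 6 had a negative difference (median -0.21), and the dim FOXD3 passed as lower (-0.24, adjusted p = 0.041), a call lost without each array in turn and under both other scalings. The other 5 did not pass by limma. SOX10 (-0.29, adjusted p = 0.053) and S100B (-0.41, adjusted p = 0.072) were lower in every shBRG1 sample. GAP43, the brightest of the 6, differed by -0.08 (adjusted p = 0.58).

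Hippo signalling is a kinase relay that restrains tissue growth. Merlin, the FERM-domain protein encoded by NF2, acts at the membrane with the scaffold KIBRA (WWC1) to bring LATS kinases to their activators, the MST kinases with the adaptor SAV1, and MOB1 proteins bind and activate LATS. LATS phosphorylates the coactivators YAP (YAP1) and TAZ (WWTR1), which are then held in the cytoplasm or degraded, and which otherwise enter the nucleus and drive transcription with TEAD factors. Angiomotin proteins such as AMOTL1 bind YAP and TAZ at junctions and on actin. NF2 is best known as a tumour suppressor of Schwann cells and the meninges.

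NF2 was the member that differed most between the groups, and the only one of the 8 whose mean was higher in shBRG1 without overlap. It read 6.99, 6.89 and 7.12 in the 3 NSC samples and 8.30, 8.33 and 8.31 in the 3 shBRG1 samples. The lowest shBRG1 value lay 1.18 log2 units above the highest NSC value, and the shBRG1 values were the tighter of the groups. The means were 7.00 ± 0.11 in NSC and 8.31 ± 0.02 in shBRG1 (SD, n = 3), a difference of 1.31 on the log2 scale (moderated SE 0.08), or 2.49-fold. Ranked by rise, NF2 stood at place 5 of the 14883 named genes. The whole measurement rests on a single probe set (16928824), so it does not separate the isoforms of merlin. Over 11 alternative settings the difference stayed between 1.25 and 1.37.

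The promoter of NF2 is shown with those of MOB1A and YAP1, because the 3 windows differ in the motifs they hold. The shBRG1 values of MOB1A lay below NSC. Those of the dim YAP1 did so by a gap of only 0.02, and its second probe set overlapped. The window of AMOTL1, which had the largest fall, lies at an internal start and is not shown. No link between motif and direction was tested. Each window shown is the 250 bases before the outermost listed transcription start in RefSeq (GRCh38.p14), written 5′ to 3′ on the strand of the gene. NF2 lies on the plus strand at chr22:29603306-29603555, MOB1A on the minus strand at chr2:74178880-74179129 and YAP1 on the plus strand at chr11:102110197-102110446. Capitals mark matches on either strand to the TEAD core CATTCC (reverse complement GGAATG), to the E-box CACGTG that MYC and MYCN dimers bind, and to the GC box GGGCGG (reverse complement CCGCCC) of SP factors, 3 motifs that share no match in these windows.
NF2: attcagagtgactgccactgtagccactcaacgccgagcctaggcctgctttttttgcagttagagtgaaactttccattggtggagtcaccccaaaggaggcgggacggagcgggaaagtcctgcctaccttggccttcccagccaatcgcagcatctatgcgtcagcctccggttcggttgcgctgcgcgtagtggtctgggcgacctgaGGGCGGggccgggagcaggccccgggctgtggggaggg
MOB1A: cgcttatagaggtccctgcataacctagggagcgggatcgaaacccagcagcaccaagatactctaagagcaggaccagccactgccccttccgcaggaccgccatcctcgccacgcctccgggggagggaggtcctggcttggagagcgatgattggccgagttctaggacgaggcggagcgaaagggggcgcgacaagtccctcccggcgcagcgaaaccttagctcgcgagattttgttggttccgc
YAP1: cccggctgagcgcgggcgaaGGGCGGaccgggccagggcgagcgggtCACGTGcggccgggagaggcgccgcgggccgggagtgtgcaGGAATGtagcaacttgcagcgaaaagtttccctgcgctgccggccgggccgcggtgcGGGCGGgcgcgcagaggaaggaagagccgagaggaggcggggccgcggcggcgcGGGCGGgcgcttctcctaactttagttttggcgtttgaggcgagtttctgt

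The NF2 window held 1 GC box, whose first base lay 38 bases before the start, and had no match to the TEAD core or the E-box. The MOB1A window had no match to any of the 3 motifs. The YAP1 window held 3 GC boxes, 1 E-box with its first base 203 bases before the start, and 1 TEAD core with its first base 162 bases before it. Windows were listed for 9 of the 10 genes, TEAD4 being the other. The YAP1 window was the only one of the 9 with a TEAD core or an E-box, and 6 of the 9 held a GC box. Among 35116 RefSeq promoter windows of the same length, 11.9% held the TEAD core, 6.34% the E-box and 42.6% the GC box. The 9 windows ranged from 35.2% GC in WWTR1 to 73.2% in AMOTL1, against a median of 58.0% over all windows. NF2 was at 62.4%, and the windows of WWTR1 and AMOTL1 lie inside the annotated gene, at an internal start. A match in such a window is a stretch of letters and no measure of binding.

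AMOTL1, the angiomotin-like scaffold, had the largest fall of the 8. Its brightest probe set read 8.80, 8.87 and 8.89 in NSC and 8.36, 8.38 and 8.33 in shBRG1. The groups did not overlap, and the gap between them was several times the spread within either. The means were 8.85 ± 0.05 and 8.36 ± 0.02 (SD, n = 3), a difference of -0.50 (SE 0.06), or 1.41-fold lower. A second AMOTL1 probe set (16743414) gave 6.60, 6.68 and 6.48 in NSC and 6.22, 6.26 and 5.95 in shBRG1. It too was lower in every shBRG1 sample, by 0.45 on the log2 scale (difference -0.45). Which strand this second probe set reads was not checked, so it may not be a second measure of the same mRNA.

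MOB1A, the coactivator of LATS kinases, was also lower in every shBRG1 sample. It read 7.71, 7.58 and 7.55 in NSC against 7.12, 7.35 and 7.19 in shBRG1. The difference was -0.39 (SE 0.09), or 1.31-fold lower, with means of 7.61 ± 0.08 and 7.22 ± 0.12 (SD, n = 3). SAV1, the adaptor that joins the MST kinases to LATS, read 6.45, 5.89 and 6.42 in NSC and 6.03, 6.26 and 6.22 in shBRG1. Its groups overlapped, NSC replicate 2 lay apart from the other NSC samples, and the SD of 0.31 in NSC was the widest of any member. The SAV1 difference of -0.09 (SE 0.15) was smaller than that spread. It was -0.27 without NSC replicate 2 and changed sign to 0.01 without NSC replicate 1.

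The coactivators themselves were dim. YAP1 read 3.31, 3.27 and 3.30 in NSC and 3.25, 2.90 and 3.10 in shBRG1, below the median of all probe sets on every array. The groups were separated by only 0.02 log2 units, with a difference of -0.21 (SE 0.09). The second YAP1 probe set (16743628) was dimmer still, with overlapping groups at 2.14 ± 0.07 and 2.05 ± 0.14 (SD, n = 3) and a difference of -0.08. The strand that it reads was not checked either. WWTR1, which encodes TAZ, read 3.54, 3.81 and 3.58 in NSC and 3.69, 3.86 and 3.80 in shBRG1. These values lie around the array medians and overlap between groups (difference 0.14, SE 0.09). Without detection calls, neither YAP1 nor WWTR1 can be separated from array background here, and the sizes of their differences may be understated.

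TEAD4, a DNA-binding partner of YAP and TAZ, was below the median gene and above the array medians. It read 4.99, 4.88 and 4.94 in NSC and 4.84, 4.50 and 4.63 in shBRG1. All shBRG1 values lay below the NSC values, with the highest of them 0.05 under the lowest NSC value, and the difference was -0.28 (SE 0.10). WWC1, the scaffold KIBRA, read 3.85, 3.67 and 3.76 in NSC and 3.77, 4.16 and 3.89 in shBRG1. The WWC1 groups overlapped near the array medians, with a difference of 0.18 (SE 0.11).

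**Figure D1:**
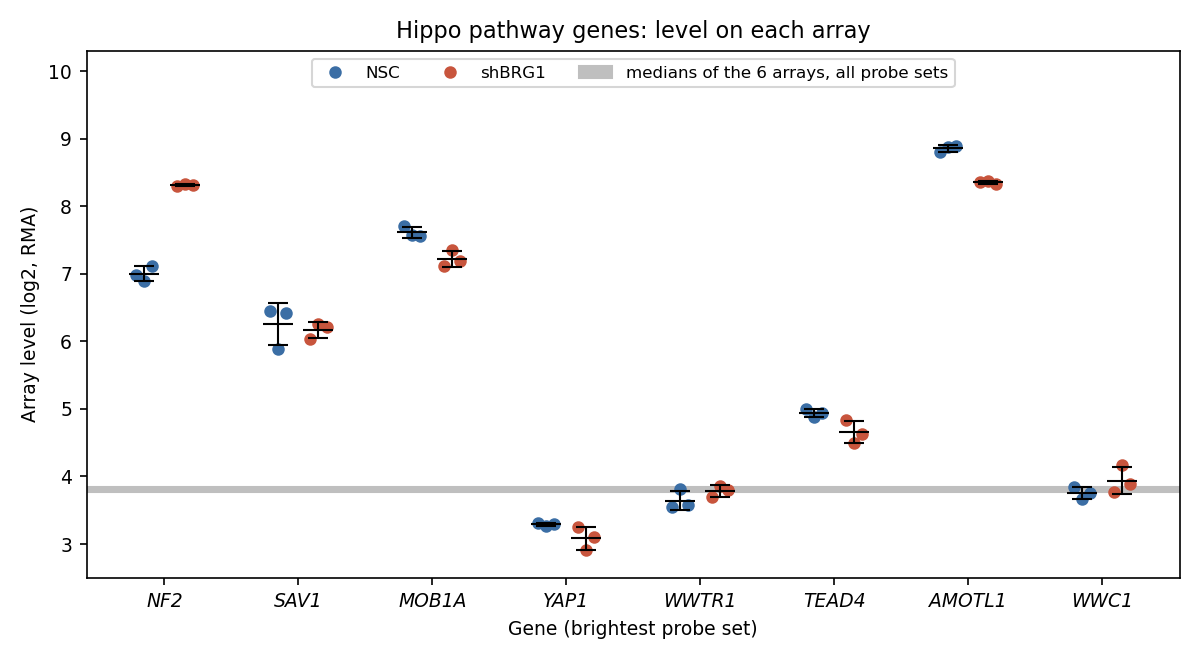
Level of each measured Hippo gene (log2, RMA) on the 3 NSC arrays (blue) and the 3 shBRG1 arrays (orange), with the mean and SD in black and the medians of the 6 arrays as a grey band. NF2 moves from about 7.00 to 8.31, AMOTL1 and MOB1A move down, YAP1 lies below the band, and WWTR1 and WWC1 lie around it; levels of different genes come from different probes and are not compared.

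Among the 8 measured members, 1 had all shBRG1 values above NSC, 4 had all of them below and 3 overlapped. Over all 14883 named genes the groups did not overlap for 35.5%, with 20.3% above and 15.3% below. The median difference of the 8 was -0.15, against 0.01 over all genes. Since the difference itself entered the choice of the members, nothing is read from these counts. In bulk RNA, fewer cells of a type and less RNA per cell cannot be told apart.

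**Figure D2:**
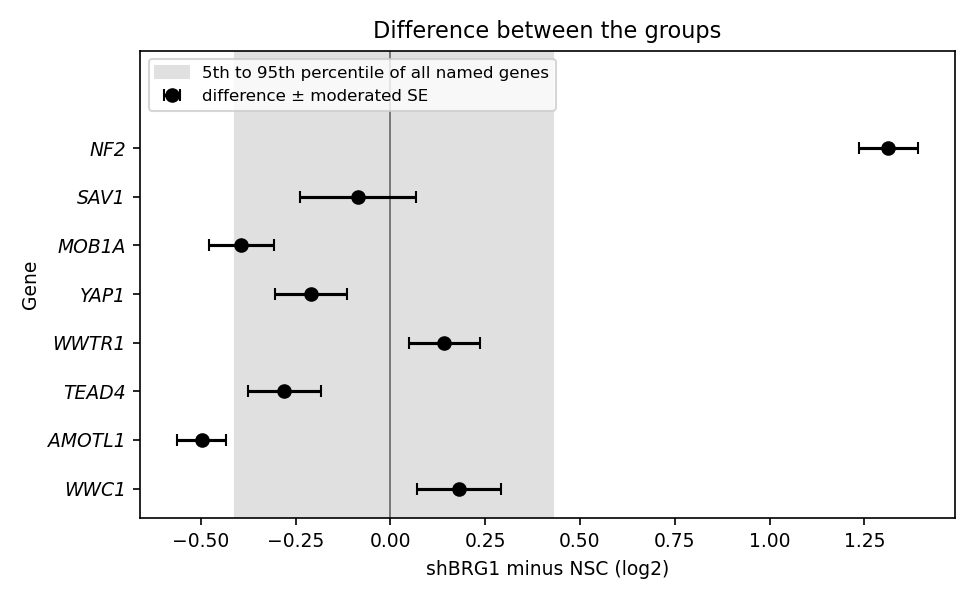
Difference of shBRG1 minus NSC (log2) for the 8 measured genes, with the moderated standard error as bars and the range from the 5th to the 95th percentile of all named genes (-0.41 to 0.43) in grey. NF2 at 1.31 and AMOTL1 at -0.50 lie outside the grey range.

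Other parts of the pathway were followed through lists of genes that exclude the 10 members, each tested with limma over all named genes at an adjusted p of 0.05. Together the 5 lists held 152 genes, of which 99 were measured. Of these, 10 were higher, 10 were lower and 79 did not pass, or 20.2% called, where 17.0% of all genes passed (9.78% higher and 7.19% lower). By list, 35.3% of the core kinase list and 36.4% of the list of merlin partners passed. The junction and nuclear lists had 12.5% each, and the target genes 22.2%. The lists hold few measured genes and differ in how many are dim, and their shares were not compared by a test. The balance over all genes turned with the scaling, from 1455 higher and 1070 lower to 1212 higher and 1329 lower after cyclic loess.

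Among core kinases and the STRIPAK phosphatase complex that opposes them, 3 of 17 measured genes rose, 3 fell and 11 did not pass, and the list median was 0.01. MAP4K4, a kinase that can phosphorylate LATS in parallel to the MST kinases, fell most. It read 7.92, 7.88 and 7.83 in NSC and 6.97, 7.05 and 7.01 in shBRG1, 1.83-fold lower (-0.87, SE 0.07, limma adjusted p = 4.1e-04). Its close relative MINK1 rose by 0.67 (SE 0.08, adjusted p = 0.0022), whereas TNIK, another kinase of that subfamily, fell (-0.30, adjusted p = 0.027). FGFR1OP2, a STRIPAK component, fell (-0.73, SE 0.15, adjusted p = 0.015), and the MST-activating kinase TAOK2 rose (0.34, adjusted p = 0.015). MOB1B, the paralogue of MOB1A, rose by 0.30 (adjusted p = 0.040), from 6.34 ± 0.08 to 6.65 ± 0.09 (SD, n = 3), and its samples did not overlap either. MOB1A and MOB1B thus lay on opposite sides of NSC. The MST kinases did not pass, with STK4 at -0.01 (SE 0.08, adjusted p = 0.96) and the dim STK3 at -0.16 (SE 0.10, adjusted p = 0.33). The count of 6 fell to 3 without shBRG1 replicate 2. MOB1B lost its call after cyclic loess and without any 1 of the arrays but shBRG1 replicate 3, TNIK without any 1 but NSC replicate 3, and TAOK2 without shBRG1 replicate 2 or 3.

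Of 40 measured regulators at junctions and in cell polarity, 2 rose, 3 fell and 35 did not pass, with a list median of -0.0015. WWC2, the paralogue of KIBRA, read 6.67, 6.60 and 6.45 in NSC and 5.84, 5.97 and 5.79 in shBRG1, 1.63-fold lower (-0.71, SE 0.09, adjusted p = 0.0022). AMOT, the founding angiomotin, fell as well (-0.47, adjusted p = 0.0099), from 5.59 ± 0.08 to 5.12 ± 0.12 (SD, n = 3), so that AMOT and AMOTL1 were both lower in every shBRG1 sample. AMOTL2, the remaining angiomotin, was dim and had a difference of -0.01 (SE 0.08, adjusted p = 0.97). TJP1, which encodes the tight junction protein ZO-1, fell (-0.41, SE 0.07, adjusted p = 0.0064). FJX1, homologue of the fly kinase four-jointed that acts on FAT cadherins, rose (0.55, SE 0.09, adjusted p = 0.0062), as did the polarity factor PARD6B (0.39, adjusted p = 0.031). LLGL1, of the Scribble polarity module, was at -0.45 (adjusted p = 0.056). PARD6B lost its call after cyclic loess and without any 1 of the arrays but NSC replicate 1, and LLGL1 passed without NSC replicate 1.

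Of 16 measured nuclear partners and degradation factors of YAP and TAZ, 1 rose, 1 fell and 14 did not pass (list median -0.04). TEAD1, another of the TEAD factors, was well above the array medians, at 9.51 ± 0.03 in NSC and 9.54 ± 0.02 in shBRG1 (SD, n = 3), a difference of 0.04 (SE 0.06, adjusted p = 0.74). TEAD2 and TEAD3 had NSC means below the array medians, at 3.66 ± 0.18 and 3.36 ± 0.30 (SD, n = 3). NLK, a kinase that phosphorylates YAP, read 8.69, 8.44 and 8.48 in NSC and 9.08, 9.12 and 9.07 in shBRG1 (0.55, SE 0.08, adjusted p = 0.0052). SMAD2, a transducer of TGF-beta signals that TAZ can bind, fell (-0.33, SE 0.06, adjusted p = 0.011). The ubiquitin ligase receptors FBXW11 (0.23, adjusted p = 0.051) and BTRC (0.12, adjusted p = 0.34), the YAP-binding p53 relative TP73 (-0.35, adjusted p = 0.091) and the TEAD repressor VGLL4 (-0.13, adjusted p = 0.22) did not pass. TP73 passed without NSC replicate 2.

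Target genes of YAP, TAZ and TEAD did not share a direction. Of 18 measured targets, 3 rose, 1 fell and 14 did not pass, and the list median was -0.01. IGFBP3, a binding protein of insulin-like growth factors, read 5.66, 5.21 and 5.53 in NSC and 6.15, 6.67 and 6.40 in shBRG1, 1.92-fold higher (0.94, SE 0.16, adjusted p = 0.0075). FJX1, which also stands in the junction list, and the endothelin gene EDN1 (0.48, SE 0.10, adjusted p = 0.017) rose as well. BIRC5, which encodes survivin and is also a gene of mitosis, fell (-0.44, SE 0.08, adjusted p = 0.011). The most widely used target genes that were measured were dim, with CCN2 at 3.46 ± 0.03 in NSC (difference 0.16, SE 0.10, adjusted p = 0.35) and ANKRD1 at 3.44 ± 0.04 (difference -0.01, SE 0.06, adjusted p = 0.96). In all, 12 of the 18 lay below the median gene. CCDC80 (-0.31, adjusted p = 0.079) and CAVIN2 (-0.53, adjusted p = 0.088) did not pass, though CCDC80 did so without shBRG1 replicate 2 and CAVIN2 without NSC replicate 3, and EDN1 lost its call without shBRG1 replicate 1 or 3.

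Of 12 fibroblast markers 7 were measured, without COL1A1, COL1A2, COL3A1, PDGFRA and PDGFRB. Of the 7 measured, 3 rose (FN1 by 1.44, DCN by 0.44 and LUM by 0.39), where 9.78% of all genes did. The other 4 did not pass, with PRRX1 at 0.32 and VIM at -0.08, and LUM lost its call in 4 cases (leaving out NSC replicate 2 or 3, or shBRG1 replicate 1 or 2). Their summed linear level was 1024 to 1060 in the NSC samples and 1104 to 1249 in the shBRG1 samples. TWIST1 differed by 0.08 and THY1 by -0.07. Of the 7 markers, 1 lay below the median gene, whereas the 9.78% covers dim genes too. With dim genes left out, 1977 genes passed as higher, against 1455 over all genes. The part of these markers in the target genes was not tested.

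**Figure D3:**
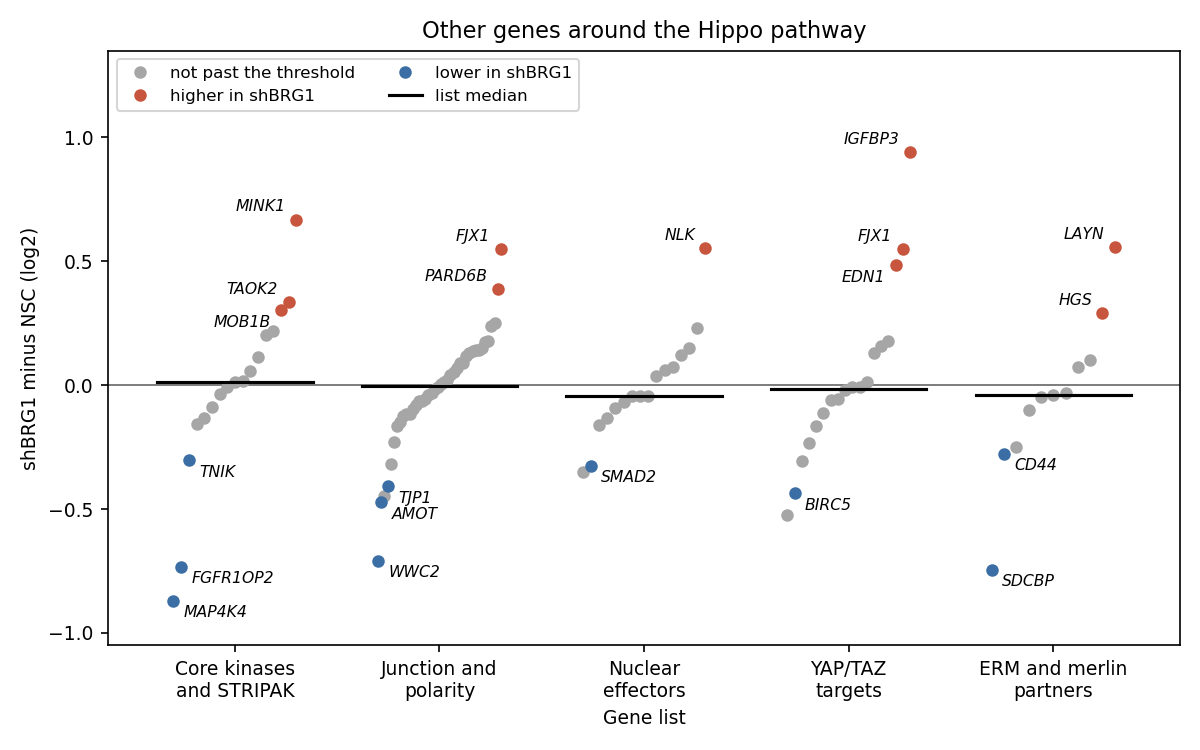
Difference of shBRG1 minus NSC (log2) for each measured gene of 5 lists around the Hippo pathway, without its 10 members, sorted within a list; orange and blue points passed an adjusted p of 0.05 as higher or lower, grey points did not, and the black line is the list median. The medians lie between -0.04 and 0.01, with called genes on both sides of 0 in each list. FJX1, AJUBA and AMOTL2 are drawn in both the junction and the target list.

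Among relatives and partners of merlin, 2 of 11 measured genes rose, 2 fell and 7 did not pass (list median -0.04). The ezrin, radixin and moesin genes, which encode the closest relatives of merlin, differed little. EZR was at -0.03 (SE 0.06, adjusted p = 0.80), RDX at -0.04 (SE 0.08, adjusted p = 0.79) and MSN at -0.05 (SE 0.06, adjusted p = 0.67), against 1.31 for NF2. SDCBP, which encodes syntenin, fell (-0.74, SE 0.11, adjusted p = 0.0053), from 5.03 ± 0.13 to 4.29 ± 0.19 (SD, n = 3). CD44, the hyaluronan receptor whose tail binds merlin, fell (-0.28, adjusted p = 0.033), and the layilin gene LAYN (0.56, adjusted p = 0.024) and the endosomal adaptor HGS (0.29, adjusted p = 0.025) rose. SDCBP, CD44 and LAYN lay below the median gene. PAK2, a kinase that phosphorylates merlin, was at -0.25 (adjusted p = 0.059), and LZTR1 at 0.10 (adjusted p = 0.38). Without any 1 of the 6 arrays the count of 4 fell to 1 or 2. HGS lost its call without each of them, CD44 without each but shBRG1 replicate 2, after centring and with trend and robust options, and LAYN in 4 of the 6 cases (NSC replicate 1 or 3, and shBRG1 replicate 1 or 2).

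The genes beside NF2 on chromosome 22 were also followed, since position did not enter the choice of the members. Of the 4 nearest measured genes on each side in the GRCh38.p14 gene table, NIPSNAP1 and THOC5, on the side where the NF2 promoter lies, rose, and the other 6 did not pass. Over all 14883 named genes, 9.78% passed as higher and 20.3% had every shBRG1 value above NSC. NIPSNAP1 and THOC5 were above the median gene, and those shares include dim genes. With dim genes left out, 1977 genes passed as higher, against 1455 over all genes. Whether the rise is local to NF2 was not tested. NIPSNAP1, a mitochondrial protein gene that is transcribed away from NF2, starts 22.4 kb from it. It read 7.82, 7.70 and 7.64 in NSC and 8.21, 8.23 and 8.18 in shBRG1 (0.49, SE 0.07, adjusted p = 0.0045). THOC5, a subunit of the THO complex of mRNA export that starts 49.8 kb away, read 9.16, 9.06 and 9.27 in NSC and 9.59, 9.53 and 9.58 in shBRG1 (0.40, SE 0.08, adjusted p = 0.011). Both were higher in every shBRG1 sample, by less than NF2. Farther on that side RFPL1 (-0.26) and RFPL1S (0.17) were dim. Beyond the far end of NF2, CABP7 (-0.13, adjusted p = 0.35), ASCC2 (-0.16, adjusted p = 0.18), MTMR3 (0.07, adjusted p = 0.70) and the dim HORMAD2 (-0.06, adjusted p = 0.73) did not pass.

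**Figure D4:**
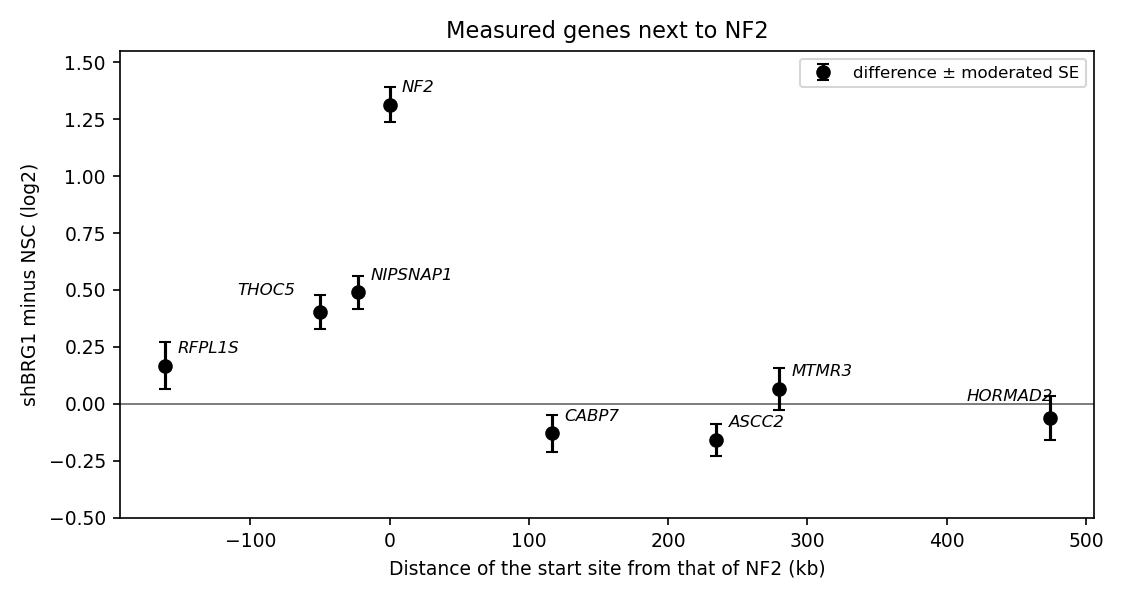
Difference of shBRG1 minus NSC (log2), with the moderated standard error, of NF2 and its nearest measured genes against the distance of their start sites from that of NF2 in kb (negative on the side of the NF2 promoter; RFPL1 has no strand in the tables used and is not drawn). NIPSNAP1 at 0.49 and THOC5 at 0.40 lie between NF2 at 1.31 and the remaining genes, which range from -0.16 to 0.17.

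The named genes whose values followed NF2 most closely over the 6 arrays, each set to its own mean, were KLHDC3 (root mean square difference from NF2 of 0.07 log2 units), ANKRD52 (0.08), DDA1 (0.08), SFXN2 (0.11) and TMEFF2 (0.11). They lie on chromosomes 6, 12, 19, 10 and 2. KLHDC3, for example, read 7.34, 7.16 and 7.39 in NSC and 8.41, 8.59 and 8.55 in shBRG1, with NSC replicate 2 the lowest of the 6 as it was for NF2. Likeness here is mostly the shared difference between the groups, and with 6 arrays it is a description.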

How the data were processed

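The 6 samples of SK-N-BE(2) RNA (3 NSC, 3 shBRG1, by the lentivirus label) went to 1 single-colour Affymetrix array each. The authors deposited 1 log2 value per probe set and array. They processed the arrays by RMA with oligo 1.27, and also list limma 3.19 and R 3.1.0, per the submitters' processing notes. The log2 scale was taken from the range of 1.19 to 13.8. RMA sets all arrays to a common distribution and can understate changes of dim probe sets. Detection calls and scan dates were not used here, the genome build is not given in these sources, and array number (3 per group) limits the precision.

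Of 52299 probe sets, 15828 had 1 symbol, 0 several and 36471 none. Symbols were updated through the GRCh38.p14 gene table, and the brightest probe set per gene was kept, with no filter on dim genes. limma 3.58.1 in R 4.3.3 (lmFit, eBayes, two-sided) compared the groups without covariates, with Benjamini-Hochberg adjustment over 14883 genes. With 3 against 3 the smallest two-sided exact permutation p is 0.1. Tested on simulated data (14883 genes, 3 arrays a group), the fit called 43 of 100 genes given a change of 0.5 and 91 of 100 given a change of 1. It also called 4 of the 14683 genes given none. Far fewer genes changed there than the 2525 called in the real data. The adjusted cut-off therefore differs, and the simulated shares do not carry over to the real calls. The members and lists were chosen with earlier results of these data known.

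Named were the members, up to 6 genes per list by p, a preset group of pathway genes where measured, 5 genes most like NF2 and its 4 nearest measured genes on each side. TEAD2, TEAD3 and the cell markers were named after their values were seen. Promoters came from RefSeq, and figures were drawn with matplotlib 3.10.9. Alternatives were centring, cyclic loess, dropping dim genes, averaging probe sets, trend and robust options, a replicate block, and leaving out each array.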

Additional observations from a re-analysis of the deposited data

How the results depend on the processing

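Of 14883 genes, 2525 passed, and 1604 to 1840 without any 1 array. The replicate numbers are shared by the groups but do not pair the samples (correlations of same-numbered deviations -0.04, -0.14 and -0.03, and 0 of 6 samples closest to their own number). With the number as a replicate block 1608 genes passed, and the counts were 3 for core kinases, 1 for nuclear partners and 2 for merlin partners. TAOK2, TNIK, MOB1B, SMAD2, HGS and CD44 lost their calls under that block, and LLGL1 passed. Leaving out each array gave 3 to 5 calls for core kinases and 1 to 2 for merlin partners. Merlin partners gave 2 calls with dim genes left out, where NF2 was the member with a higher mean among the 4 left in (1 of 4), and the junction list gave 8 with trend and robust options. Of the 20 list genes called, 11 kept their call under every alternative in which they were tested, 9 lost it in at least 1, and 0 changed sign. LLGL1 also passed after cyclic loess and with either dim genes left out or trend and robust options, PAK2 under the same 3, FBXW11 under the last 2, CAVIN2 with trend and robust options and ASCC2 after cyclic loess. Of the members, AMOTL1 moved by more than its spread, to -0.56 after cyclic loess. The 4 dim members (YAP1, WWTR1, TEAD4 and WWC1) and dim targets are limited by signal over background.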
